A study of Mus musculus with 12 samples.

Results

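Cultured primary hepatocytes of the mouse, the cells that carry out most liver metabolism, had received the mitochondrial scavenger Mito-TEMPO and then FAC, and were compared with cells that had received neither. The comparison uses 6 of the 12 libraries of the series, chosen by their titles: 3 of cells given Mito-TEMPO with FAC (MT+FAC) and 3 of control cells. Of the 55487 genes listed, 13535 had enough counts to be tested. Special attention went to genes that FAC alone moved to one side of control and that stood on the other side in MT+FAC.

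The series holds 4 groups of 3 libraries: untreated controls, cells with FAC alone, and cells in which liproxstatin-1 (Lip-1+FAC) or Mito-TEMPO preceded FAC. The scavengers were added on day 2 of culture. The submitters do not spell out FAC, and their design text calls Mito-TEMPO a scavenger of mitochondrial reactive oxygen species (ROS) and liproxstatin-1 one of lipid ROS. No group received Mito-TEMPO without FAC, so the effect of the scavenger by itself and its effect on the response to FAC cannot be told apart in this comparison. The labels do not say whether replicates are separate animals or separate cultures, and the p-values therefore measure the spread between these libraries, which may be technical.

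Hepatocytes sense iron and adjust its traffic. They take it up through the transferrin receptor, store it in ferritin, export it through ferroportin and secrete hepcidin, a hormone that removes ferroportin from cell surfaces and whose gene is switched on by bone morphogenetic protein (BMP) signals through SMAD proteins. Oxidants and electrophiles release the transcription factor NRF2 from its inhibitor, and NRF2 raises genes for glutathione synthesis and detoxification. Hypoxia-inducible factors (HIF) are degraded by prolyl hydroxylases that need oxygen and iron, and raise genes of glycolysis, vessel growth and erythropoietin when they persist.

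Reads assigned to genes numbered 23346252 to 26352195 in the control libraries and 22991598 to 31683376 in MT+FAC. These made up 78.0% to 79.8% of the listed reads in control and 80.5% to 80.7% in MT+FAC, ranges that did not overlap. Pairs of libraries within a group differed by more than counting error. A level is given as CPM, a gene's counts scaled to 1000000 gene-assigned reads after TMM normalisation, in the order of replicates 1, 2 and 3, which is an order of names. Differences are log2 fold changes with the standard error (SE), tested with edgeR at an adjusted p under 0.05.

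MT+FAC differed from control in 2684 genes, 19.8% of those tested, of which 1314 (9.71%) were higher and 1370 (10.1%) lower. Of these, 266 (1.97%) reached an absolute log2 fold change of 1, 110 (0.813%) upward and 156 (1.15%) downward. The largest rises included those of genes for cystine uptake, heme breakdown and detoxification, and the largest falls included the genes of hepcidin, the transferrin receptor and the gluconeogenic enzyme Pck1. FAC alone had changed 4960 genes (36.6%) against the same control libraries, Lip-1+FAC had changed 4089 (30.2%), and MT+FAC differed from Lip-1+FAC in 182 (1.34%). The 3 libraries of each group did not overlap between MT+FAC and control in 5169 genes (38.2%), called or not.

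The 10 largest rises among protein-coding genes with a mean of at least 5 CPM in the higher group and no overlap between the groups were led by Slc7a11, the cystine importer that feeds glutathione synthesis. It stood at 12.3, 12.9 and 14.9 CPM in control and 65.98, 71.8 and 80.1 CPM in MT+FAC, a rise of 2.44 (SE 0.0898, edgeR adjusted p = 4.35e-12). Cbr3, a carbonyl reductase, rose by 2.44 from 1.58, 1.69 and 1.97 to 10.6, 8.47 and 9.46 CPM. The 2 groups were far apart for both genes.

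Cachd1, which encodes a protein with a cache domain, rose by 2.36 (SE 0.129), and Hmox1, the heme-degrading enzyme heme oxygenase 1, by 2.08 (SE 0.0905). The other 6 were Snhg11 (2.04, listed as protein-coding in the annotation used), the fatty acid hydroxylase gene Cyp4f39 (1.88), the chemokine gene Ccl2 (1.65), the glutathione transferase gene Gsta2 (1.55), the quinone reductase gene Nqo1 (1.53) and the sulfiredoxin gene Srxn1 (1.51). Their edgeR adjusted p-values were at most 0.000335. Counts of Gsta2 are uncertain because its transcript is 97.2% identical to that of Gsta1.

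The largest fall was that of Hamp, described with the iron genes. Pck1, the enzyme that commits oxaloacetate to glucose synthesis, fell by 2.24 (SE 0.186, edgeR adjusted p = 4.36e-07), from 17.98, 25.2 and 18.7 CPM in control to 5.001, 4.12 and 3.93 CPM. The retinoic acid hydroxylase gene Cyp26a1 fell by 2.12, the cardiac actin gene Actc1 by 2.02, the antimicrobial peptide genes Defb1 and Leap2 by 1.74 and 1.73, and the ferritin receptor gene Scara5 by 1.61. Fabp1, the abundant liver carrier of fatty acids, fell by 1.68 (SE 0.228), from 85.2, 51.5 and 58.5 to 22.8, 21.02 and 17.01 CPM. Each of these 10 rises and 10 falls was called in every alternative fit that tested it.

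**Figure D1:**
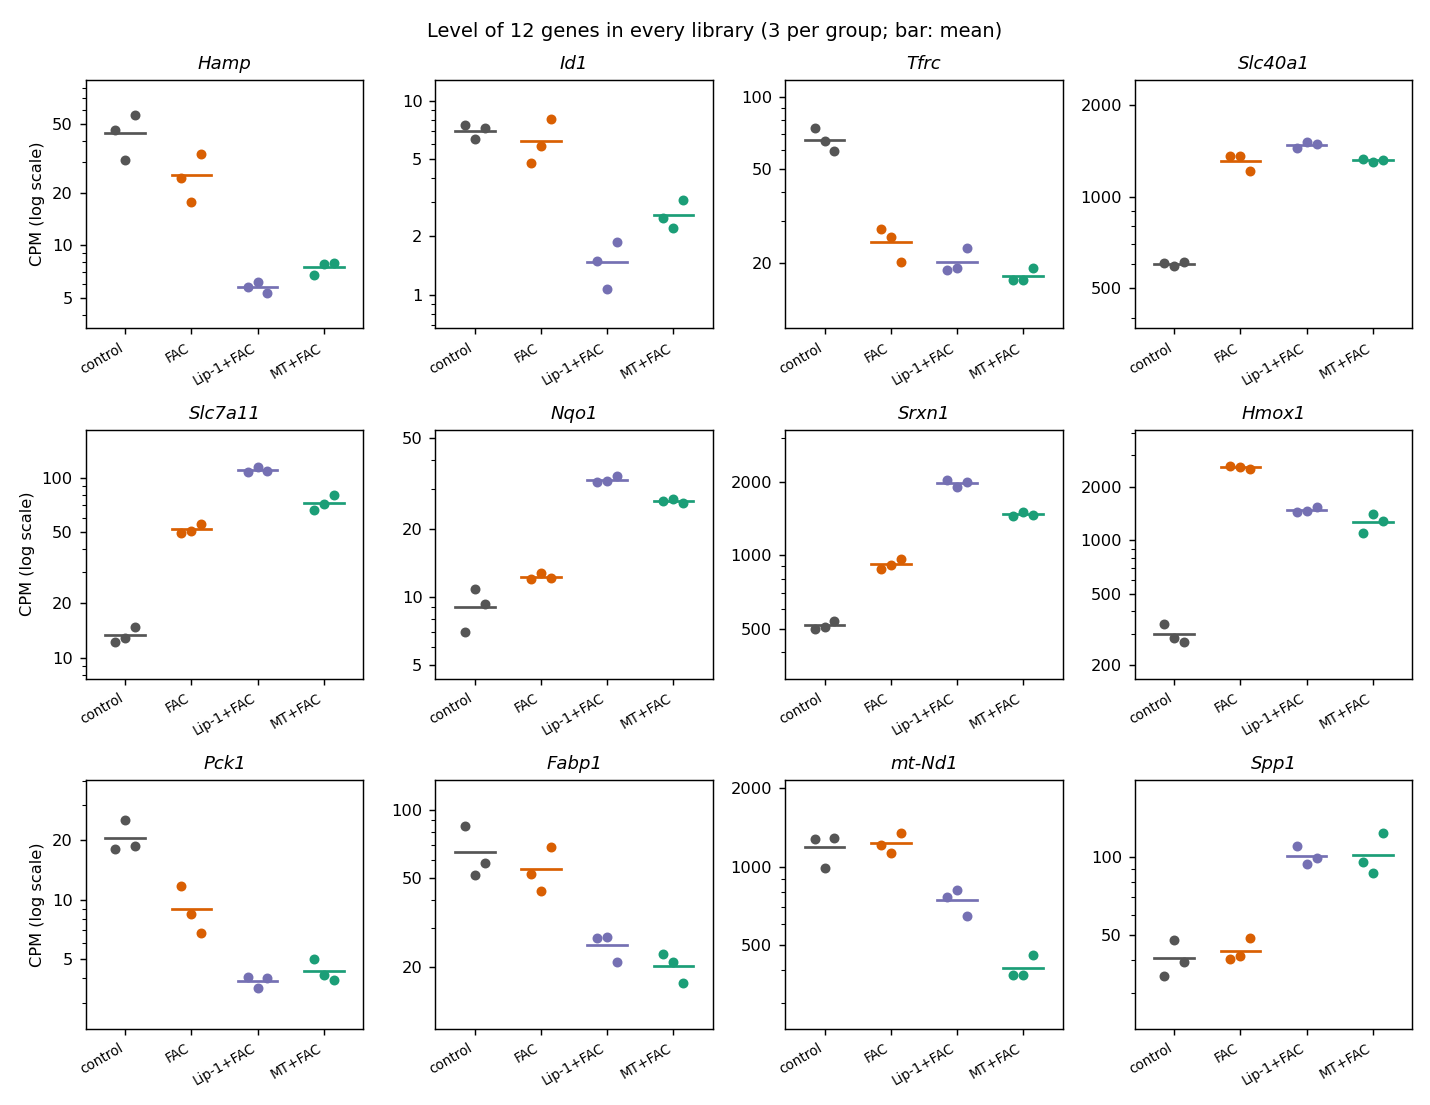
Level in CPM (log axis) of 12 genes in every library of the 4 groups, a point per library and a bar at the mean of 3. In each panel the 3 MT+FAC libraries lie entirely above or entirely below the 3 control libraries; for Hamp they lie between 6.72 and 7.90 CPM against at least 30.9 CPM in control.

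Genes of iron handling went both ways. Of 22 tested, 6 were higher (27.3%) and 5 lower (22.7%) in MT+FAC than in control, against 9.71% and 10.1% of all genes tested. Tfrc, the transferrin receptor (ENSMUSG00000022797, GRCm38 chromosome 16, 32608920 to 32632794), stood at 73.99, 65.2 and 59.6 CPM in control and 17.03, 17.03 and 19.1 CPM in MT+FAC, a fall of 1.91 (SE 0.119, edgeR adjusted p = 1.3e-08). Slc40a1, the exporter ferroportin (ENSMUSG00000025993, chromosome 1, 45908068 to 45926523), stood at 606, 592 and 610.5 CPM in control and 1329, 1304 and 1321 CPM in MT+FAC, a rise of 1.13 (SE 0.0539, edgeR adjusted p = 2.65e-10). The control and MT+FAC libraries of both genes were far apart, and the FAC libraries lay on the same side of control, at 27.8, 25.9 and 20.2 CPM for Tfrc and 1361, 1357 and 1214 CPM for Slc40a1.

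Fth1, the heavy chain of ferritin, stood at 3969, 3432 and 4010 CPM in control and 3722, 3786 and 3928 CPM in MT+FAC, a difference of 0.00 (SE 0.0704, edgeR adjusted p = 0.981), and at 5552, 5138 and 5349 CPM in FAC. The MT+FAC libraries of Fth1 thus lay within the range of the control libraries and below every FAC library. The remaining calls were rises of the mitochondrial iron importer gene Slc25a37 (0.57), of Fbxl5, a sensor that degrades iron regulatory proteins (0.46), and of the plasma carrier genes Cp (0.43), Hpx (0.25) and Trf (0.23). Those 3 carriers were below control in FAC. Falls were called for the siderophore-binding protein gene Lcn2 (-0.63), the importer genes Slc39a14 (-0.58) and Slc11a2 (-0.30), and Tfr2 (-0.24).

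Hamp, which encodes hepcidin (ENSMUSG00000050440, chromosome 7, 30942368 to 30944032), stood at 46.1, 30.9 and 55.9 CPM in control and 6.72, 7.79 and 7.90 CPM in MT+FAC. This was a fall of 2.57 (SE 0.258, edgeR adjusted p = 7.64e-05), and no MT+FAC library came near the lowest control library. The FAC libraries stood at 24.5, 17.8 and 33.5 CPM and those of Lip-1+FAC at 5.75, 6.18 and 5.33 CPM. Of 21 genes of hepcidin control tested, 6 were lower and 4 higher, and leaving out control replicate 1 or MT+FAC replicate 2 gave 2 rises. The falls covered 4 known targets of BMP signals: Atoh8 by 2.09 (SE 0.123), Id1 by 1.45 (SE 0.215), Id2 by 0.88 and Id3 by 0.59.

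Id1, an inhibitor of helix-loop-helix factors, stood at 7.52, 6.34 and 7.22 CPM in control, 4.79, 5.86 and 8.03 CPM in FAC and 2.50, 2.20 and 3.07 CPM in MT+FAC. FAC alone was not called against control for Id1 (edgeR adjusted p = 0.524), and MT+FAC lay below every library of both. The sixth fall was that of Hfe2, the BMP co-receptor hemojuvelin, at -0.35. The rises were those of the ligand gene Bmp6 (0.58), Neo1 (0.35), Smad4 (0.26) and Hfe (0.25). Smad7 and Tmprss6, further parts of the pathway, were not called, at -0.34 and 0.06.

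The Hamp promoter is shown because the gene had the largest fall among the genes eligible for naming. The stretch covers the 150 bases before the RefSeq start of the gene (build GRCm38.p6, chr7:30944030-30944179, minus strand, printed 5′ to 3′ along the gene). Capitals mark GGCGCC, the core of BMP response elements, which reads the same on both strands. Those letters lie in the 250 bases before the start of 19.1% of the 9869 tested genes with a RefSeq window, and of 7 of 15 genes of hepcidin control (46.7%). Of all called genes with a window, 16.4% of the lower and 21.6% of the higher held them. A match is a description of the letters and not evidence of binding.
Hamp: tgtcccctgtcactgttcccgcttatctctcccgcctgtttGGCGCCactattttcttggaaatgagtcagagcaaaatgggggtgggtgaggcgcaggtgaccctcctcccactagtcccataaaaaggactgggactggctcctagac

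NRF2 targets rose as a group of single calls: 31 of 40 were higher (77.5%) and 2 lower, with a median log2 fold change of 0.58, where 9.71% of all genes tested were higher. The median of the same list was 0.23 in FAC and 0.81 in Lip-1+FAC, comparisons that share the control libraries. FAC had raised 23 of them, where it raised 17.5% of all genes, and Lip-1+FAC 34, where it raised 15.4%. Leaving out a library gave 30 to 32 higher members. Nqo1, which reduces quinones, stood at 7.01, 10.9 and 9.35 CPM in control, 11.9, 12.7 and 12.1 CPM in FAC and 26.4, 27.03 and 25.8 CPM in MT+FAC, and Lip-1+FAC reached 32.1, 32.5 and 33.96 CPM. Its MT+FAC libraries were all higher than any control or FAC library.

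Srxn1, which repairs oxidised peroxiredoxins, rose from 499, 509 and 539 to 1449, 1500 and 1454 CPM, a difference of 1.51 (SE 0.055, edgeR adjusted p = 4.35e-12). Glutathione synthesis genes rose less: Gclc, the catalytic subunit of glutamate-cysteine ligase, by 0.67 (SE 0.0526) and its partner Gclm by 0.68. Gclc already stood at 5256, 5196 and 5434 CPM in control. The transporter genes Abcc2 and Abcc4, which pump conjugates out of the cell, rose by 1.25 and 1.37, and the thioredoxin reductase gene Txnrd1 by 0.87. The glutathione transferase genes Gstm3, Gsta3 and the enzymes Idh1, Ephx1, Aldh3a2 and Ugt2b35 rose against control (1.12, 0.40, 0.49, 0.44, 0.33 and 0.50) although FAC alone had lowered each of these 6.

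The members that fell were Gstm2 (-0.24) and G6pdx, the first enzyme of the pentose phosphate pathway (-0.41), which FAC alone had raised by 0.56. These 2 falls did not last: 0 were called without control replicate 3, without MT+FAC replicate 3 or with offsets for GC content and transcript length, and 1 without control replicate 1, without MT+FAC replicate 1 or 2, or with summed stranded columns. Against Lip-1+FAC, 13 of the 40 were lower in MT+FAC and none was higher, where 0.879% of all genes tested were lower. Slc7a11 was lower by 0.60 (SE 0.0803, edgeR adjusted p = 0.000579), with Lip-1+FAC libraries at 107, 115 and 108 CPM.

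Promoters of 3 NRF2 targets that rose are shown because they hold a full match to TGANTCAGC, a core of the antioxidant response element. The search covered both strands (the reverse complement is GCTGANTCA) in 250 bases before the RefSeq start, and 5 of 36 NRF2 targets had a match (13.9%) against 1.26% of the tested genes with a window. The letters contain TGANTCA, which is also the core bound by AP-1 factors. The other matches among NRF2 targets were in Prdx1, which rose by 0.21, and in Gstp1, at 0.08 and not called. Of all called genes with a window, 1.95% of the higher and 1.73% of the lower had a match. Each stretch is 150 bases long and ends at the last base before the start, on the plus strand: Srxn1 at chr2:152105374-152105523, Osgin1 at chr8:119436997-119437146 and Htatip2 at chr7:49759362-49759511. Osgin1 and Htatip2 rose by 1.19 and 0.68, and capitals mark the match.
Srxn1: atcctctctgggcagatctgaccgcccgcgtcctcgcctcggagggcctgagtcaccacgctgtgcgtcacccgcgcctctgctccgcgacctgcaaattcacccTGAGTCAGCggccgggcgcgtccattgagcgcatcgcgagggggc
Osgin1: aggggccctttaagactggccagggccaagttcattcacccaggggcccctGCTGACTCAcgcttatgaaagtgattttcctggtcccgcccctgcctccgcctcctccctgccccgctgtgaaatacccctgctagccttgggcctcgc
Htatip2: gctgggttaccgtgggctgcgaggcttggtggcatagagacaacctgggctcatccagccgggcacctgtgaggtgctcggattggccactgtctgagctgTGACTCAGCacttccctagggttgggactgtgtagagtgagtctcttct

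Heme genes showed 4 rises and 1 fall among 16 tested (25% and 6.25%, against 9.71% and 10.1% of all genes tested). Hmox1 stood at 341, 284 and 269.6 CPM in control and 1097, 1408 and 1275 CPM in MT+FAC, with FAC at 2595, 2580 and 2504 CPM, so that MT+FAC lay between control and FAC without overlap. The endosomal heme transporter gene Slc48a1 rose by 0.92 (SE 0.0527), and Alas1, the rate-limiting enzyme of heme synthesis, by 0.26, where FAC alone had lowered it by a log2 fold change of -0.39. Hmox2 fell by 0.32, but 40.2% of its exonic bases overlap another gene and the call was lost when any library but control replicate 2 was left out.

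Genes of ferroptosis, a death driven by iron and lipid peroxides, were called for 7 rises and 3 falls among 21. These were 33.3% and 14.3%, against 9.71% and 10.1% of all genes tested. Scd2, a desaturase that makes monounsaturated fatty acids, had the largest difference (0.90), followed by Gch1, the first enzyme of tetrahydrobiopterin synthesis (0.49), and the glutathione-degrading enzyme gene Chac1 (0.43). Por, an oxidoreductase, fell by 0.36. Gpx4, which reduces lipid hydroperoxides, and Acsl4, which loads polyunsaturated fatty acids, were not called, at 0.02 (SE 0.0669) and 0.11 (SE 0.0683). With offsets for transcript length and GC content Gpx4 was called higher, at 0.28, and a pseudogene copy at 99.7% identity makes its counts uncertain.

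Of 20 superoxide and peroxide enzymes, 7 fell and 1 rose, among them the falls of Sod1 (-0.45) and of the methionine sulfoxide reductase gene Msrb1 (-0.61). Of 30 genes of the integrated stress response, 14 were higher (46.7%) and 2 lower (6.67%), with a median of 0.22. Over all genes tested 9.71% were higher and 10.1% lower. Without control replicate 1 or MT+FAC replicate 2, 8 were higher. The amino acid transporter gene Slc7a1 rose by 0.75, the serine synthesis gene Phgdh by 0.60 and the pseudokinase gene Trib3 by 0.60, whereas Ddit4, an inhibitor of mTORC1, fell by 1.16 (SE 0.138). Atf3 rose by 0.43. The secreted stress factors Gdf15 and Fgf21 were not called (0.03 and 0.48). Ddit3 rose by 0.38, but 10.9% of its exonic bases overlap other genes and the call was lost in 5 alternatives.

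HIF targets were lower in MT+FAC than in control: 20 of 27 fell (74.1%) and none rose, with a median of -0.45, against 10.1% of all genes tested lower. In Lip-1+FAC 21 of the 27 were lower and 1 higher, with a median of -0.64, where 14.8% of all genes were lower; both comparisons share the control libraries. In FAC alone 16 of the same 27 had been higher, where 17.5% of all genes were, and 1 lower, with a median of 0.49. There were 11 members on opposite sides of control in the 2 comparisons, 40.7% of those tested, where the background over all genes was 2.36%. Both comparisons share the control libraries, and leaving out control replicate 1 or MT+FAC replicate 3 left 11 and 13 lower members.

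The vessel growth factor genes Vegfa and Pgf were among these 11. Vegfa stood at 385, 299 and 273 CPM in control, 433, 495 and 497 CPM in FAC and 251, 240.5 and 211 CPM in MT+FAC. Pgf stood at 122, 102 and 105 CPM in control, 308, 291 and 367 CPM in FAC and 51.5, 78.7 and 58.5 CPM in MT+FAC. For both genes every control library lay between the FAC libraries above and the MT+FAC libraries below. Pgf differed from control by -0.80 (SE 0.175, edgeR adjusted p = 0.0103) and Vegfa by -0.45 (SE 0.116, edgeR adjusted p = 0.0182).

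The other 9 included the vasodilator peptide gene Adm (-0.52), the growth factor binding protein gene Igfbp1 (-0.54), the prolyl hydroxylase gene Egln3 (-0.61), the pyruvate dehydrogenase kinase gene Pdk1 (-0.60), the disulfide-forming oxidase gene Ero1l (-0.42), the lipid droplet gene Hilpda (-0.32), the collagen hydroxylase gene P4ha1 (-0.31) and the clock-linked repressor gene Bhlhe40 (-0.19). Igfbp1 stood at 184, 122 and 189 CPM in control, 682, 701 and 629 CPM in FAC and 93.7, 118 and 128 CPM in MT+FAC, and its MT+FAC and control libraries overlapped. Adm stood at 219, 176 and 213 CPM in control, 394, 418 and 469 CPM in FAC and 121, 169 and 134 CPM in MT+FAC, without overlap.

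The remaining 9 falls came without a rise in FAC that was called, or with a change the same way. They included Epo, which encodes erythropoietin (-1.63, at 1.71, 1.31 and 1.03 CPM in control and 0.531, 0.479 and 0.259 CPM in MT+FAC), Ankrd37 (-1.27), the glycolytic regulator gene Pfkfb3 (-1.03, SE 0.0898) and the mitophagy receptor gene Bnip3 (-0.97). The call of Epo was lost without control replicate 1. Exonic overlap with other genes covers 12.2% of Epo, 26.4% of Ankrd37 and 22.2% of Bnip3. Hif1a itself was not called, at 0.08, and Epas1, which encodes HIF-2 alpha, fell by 0.55.

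Glycolysis genes were lower too: 14 of 23 fell (60.9%, against 10.1% of all genes tested), none rose, and the median was -0.36. Without control replicate 1 or MT+FAC replicate 1, 10 fell. In Lip-1+FAC 18 fell, where 14.8% of all genes were lower, with a median of -0.65. Slc16a3, the lactate exporter, stood at 98.1, 76.3 and 81.9 CPM in control, 112, 130.4 and 146.5 CPM in FAC and 42.9, 50.6 and 42.4 CPM in MT+FAC. Hk1, a hexokinase that traps glucose, stood at 7.73, 5.70 and 6.43 CPM in control, 15.5, 17.1 and 27.2 CPM in FAC and 2.69, 3.96 and 4.32 CPM in MT+FAC. In both genes the 3 groups did not overlap and control lay in the middle. Hk1 lost its call without control replicate 1 or without MT+FAC replicate 1.

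Further falls covered nearly every step from hexose phosphate to lactate: Pfkl, Aldoa, Aldoc, Tpi1, Gapdh, Pgk1, Pgam1, Eno1, Pkm and Ldha lay between -0.69 (Pgam1) and -0.25 (Aldoa). Of the 14, 7 were on opposite sides of control in FAC and MT+FAC (Slc16a3, Hk1, Pkm, Pfkl, Eno1, Gapdh and Aldoa). Over both lists, which share members, 45 genes were tested, of which 32 were lower, none higher and 18 on opposite sides of control. Of all genes tested 10.1% were lower, 9.71% higher and 2.36% on opposite sides. The lists were written with earlier results of these data known, so the pooled count is no independent support.

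**Figure D2:**
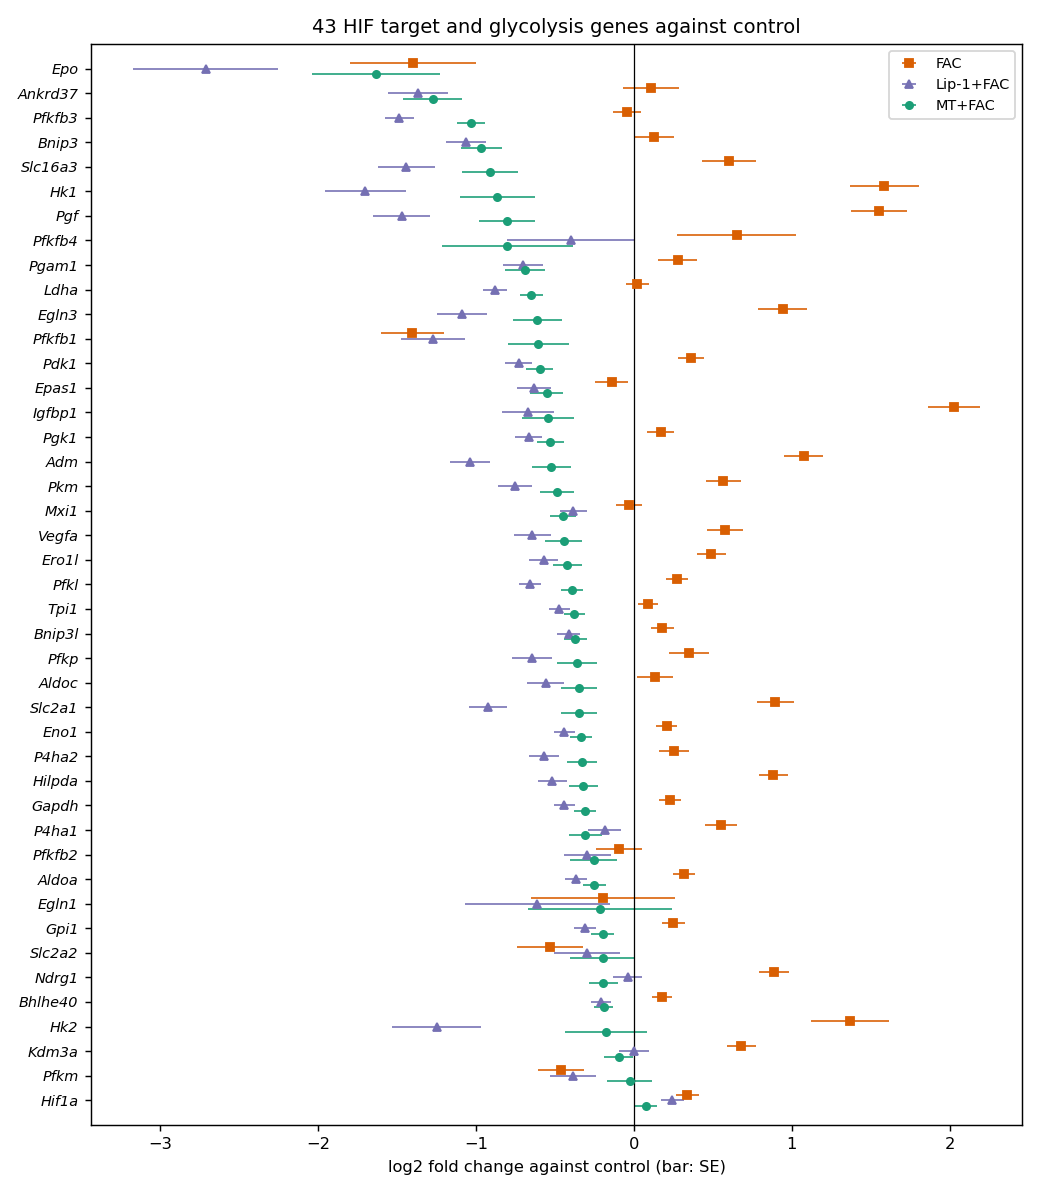
Log2 fold change against control (x axis, bars SE) of 43 of the 45 genes of the HIF and glycolysis lists in FAC, Lip-1+FAC and MT+FAC, ordered by the value in MT+FAC. Points of MT+FAC lie left of 0 for nearly all genes while most FAC points lie right of 0, as for Pgf (-0.80 in MT+FAC and 1.55 in FAC).

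Promoters of 4 of these genes are shown because HIF binds the core ACGTG. The core, or its reverse complement CACGT, lies in the 250 bases before the RefSeq start of 14 of 21 HIF targets with a window (66.7%) and of 11 of 22 glycolysis genes (50%), against 25.2% of the tested genes with a window. Among the genes on opposite sides of control, it was found for 36 of the 120 with MT+FAC below control (30%) and for 24 of the 112 with MT+FAC above (21.4%). Over all genes called against control it was found for 24.7% of those lower and 25.0% of those higher, so it did not follow the direction of change. The same letters lie within the E-box CACGTG, and shares are given as a description of short letters that occur often. All 4 stretches are the last 150 bases before the start on the plus strand: Pgk1 at chrX:106186950-106187099, Slc16a3 at chr11:120948917-120949066, Hilpda at chr6:29272476-29272625 and P4ha1 at chr10:59323146-59323295. Capitals mark the core on either strand.
Pgk1: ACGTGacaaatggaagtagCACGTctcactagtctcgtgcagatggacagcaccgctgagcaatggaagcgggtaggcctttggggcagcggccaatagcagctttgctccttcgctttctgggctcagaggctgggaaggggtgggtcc
Slc16a3: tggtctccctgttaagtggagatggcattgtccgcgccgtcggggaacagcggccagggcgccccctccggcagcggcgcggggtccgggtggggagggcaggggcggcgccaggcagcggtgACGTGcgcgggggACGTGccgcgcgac
Hilpda: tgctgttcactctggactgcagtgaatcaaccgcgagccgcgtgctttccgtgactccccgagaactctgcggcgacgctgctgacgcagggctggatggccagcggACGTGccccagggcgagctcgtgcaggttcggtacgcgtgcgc
P4ha1: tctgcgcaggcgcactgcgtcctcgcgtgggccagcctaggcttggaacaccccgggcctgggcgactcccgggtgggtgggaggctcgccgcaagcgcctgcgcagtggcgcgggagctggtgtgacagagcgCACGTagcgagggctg

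In all, 320 genes (2.36%) were called on opposite sides of control in MT+FAC and in FAC, 160 with MT+FAC above and 160 with MT+FAC below. The calls share the control libraries, so that a control library that stands apart moves both. For 291 of them (2.15% of the genes tested) all 3 control libraries lay between the other groups. In Lip-1+FAC 271 of the 320 were called against control on the same side as in MT+FAC, where over all genes 15.4% were higher and 14.8% lower. For 220 MT+FAC was nearer to control than Lip-1+FAC, a count with no share over all genes beside it. The 320 were chosen by a call against the same control libraries, so neither count is read as a trait of these genes. Of the 320, 11 (0.0813% of the genes tested) were called in MT+FAC against Lip-1+FAC. All 320 were called in MT+FAC against FAC, which the way they were chosen nearly fixes, so nothing is read from it (over all genes 21.2% were higher and 19.7% lower). The median absolute difference from control was 0.416 in MT+FAC and 0.447 in FAC on the log2 scale. There were 80 genes with both differences at 0.5 or more and 7 with both at 1 or more. Without control replicate 1 there were 192 genes on opposite sides of control, without MT+FAC replicate 1 there were 204 and without MT+FAC replicate 3 there were 210, of which 170, 191 and 205 belonged to the 320.

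Genes above control included Slc22a27, of the organic anion transporter family, which stood at 4.83, 5.96 and 5.68 CPM in control, 1.94, 2.95 and 2.02 CPM in FAC and 13.03, 9.01 and 11.8 CPM in MT+FAC. Its counts are uncertain because Slc22a29 is 96.8% identical. Scd2 stood at 10.9, 13.2 and 13.1 CPM in control, 5.63, 6.47 and 6.26 CPM in FAC and 25.2, 21.1 and 23.3 CPM in MT+FAC, and Lip-1+FAC reached 40.4, 38.9 and 40.9 CPM. The groups of Scd2 did not overlap, and MT+FAC lay above control but below Lip-1+FAC. Serpind1, the thrombin inhibitor heparin cofactor II, stood at 11.8, 14.2 and 12.8 CPM in control, 4.82, 5.52 and 4.12 CPM in FAC and 26.7, 18.9 and 21.9 CPM in MT+FAC.

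The pattern recognition receptor gene Tlr2 rose by 1.304 (SE 0.205, edgeR adjusted p = 0.000289) and was at -0.78 in FAC. Sirpa, the receptor of the do-not-eat signal CD47, rose by 0.85, Pbld2 by 0.82, the perforin-like gene Mpeg1 by 0.81 and the medium-chain acyl-CoA synthetase gene Acsm5 by 0.80. Cd36, a receptor for fatty acids, rose by 1.23 (SE 0.165) from 7.43, 13.99 and 11.6 to 26.97, 22.1 and 28.7 CPM, with FAC at 8.001, 7.60 and 6.82 CPM. Its FAC libraries overlapped the lowest control library, although FAC was called lower.

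Genes below control included Defb1, a beta-defensin, which stood at 8.67, 5.51 and 6.71 CPM in control, 13.3, 10.5 and 14.1 CPM in FAC and 2.31, 2.24 and 1.64 CPM in MT+FAC. Hmga1, an architectural protein of chromatin, stood at 59.7, 46.9 and 60.9 CPM in control, 116, 114 and 136 CPM in FAC and 31.7, 31.1 and 32.4 CPM in MT+FAC, and shares most of its sequence with a copy, Hmga1b. In both genes the 3 groups were separate. Smox, which oxidises spermine, fell by 0.79 (SE 0.0988), Enho, which encodes adropin, by 0.93, Syce2 by 0.81 and the mitochondrial malic enzyme gene Me2 by 0.85. Me2 lost its call without control replicate 1 or 3 or MT+FAC replicate 1 or 3.

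**Figure D3:**
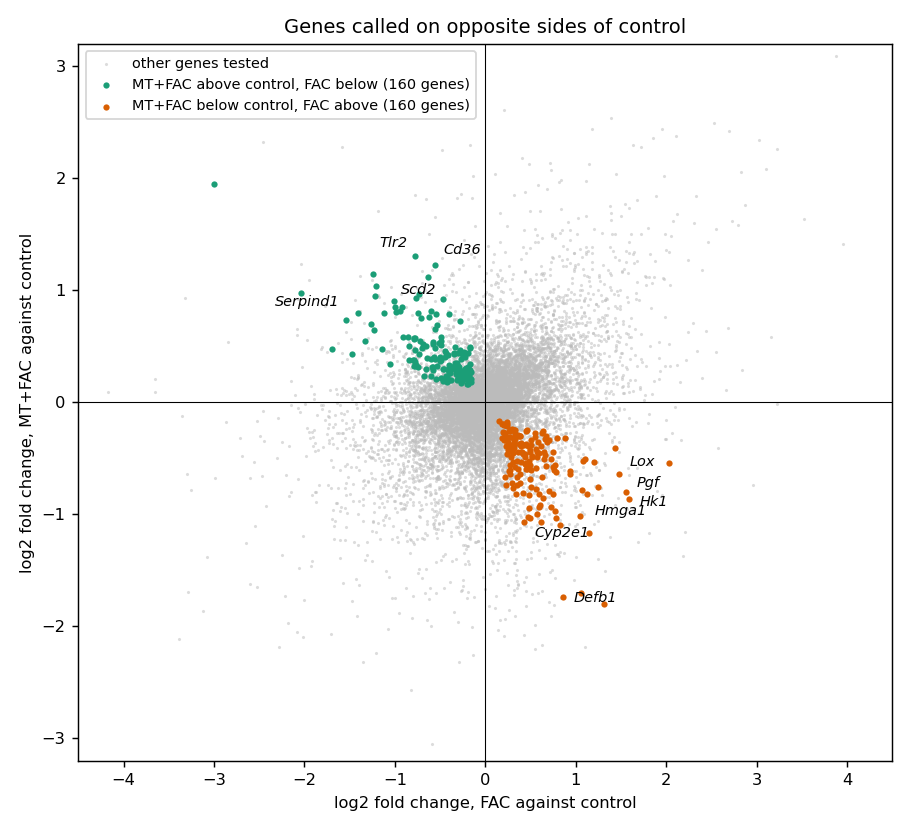
Log2 fold change of each gene tested in FAC against control (x axis) and in MT+FAC against control (y axis), with the 320 genes called on opposite sides of control in colour and 9 genes outside the axes not drawn. The 160 coloured genes at the upper left were above control in MT+FAC and below it in FAC, and the 160 at the lower right the reverse; both axes use the same control libraries.

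A further 1001 genes (7.40%) were called in MT+FAC against both control and FAC while FAC itself was not called against control, 357 (2.64%) above and 644 (4.76%) below. The absence of a call does not show that FAC left them unchanged. Without MT+FAC replicate 1 there were 610 and without control replicate 1 there were 657. Snhg11, known as a host RNA of small nucleolar RNAs, stood at 2.56, 1.76 and 2.37 CPM in control, 2.34, 2.26 and 2.62 CPM in FAC and 11.97, 6.42 and 9.02 CPM in MT+FAC. Spp1, which encodes osteopontin, stood at 34.8, 48.05 and 39.4 CPM in control, 40.4, 41.4 and 48.97 CPM in FAC and 96.4, 86.9 and 125 CPM in MT+FAC. The control and FAC libraries of Spp1 overlapped and the MT+FAC libraries were all higher; other genes cover 18.8% of its exonic bases.

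Cyp4f39 (1.88), the transporter gene Abcc12 (1.18) and the sodium-calcium exchanger gene Slc24a3 (1.15) completed the rises named from this class. Its named falls were Fabp1, mt-Nd1, Id1, the indolethylamine methyltransferase gene Inmt (-1.49, SE 0.196) and the antitrypsin gene Serpina1c. Serpina1c fell by 1.40 (SE 0.364, edgeR adjusted p = 0.0287). Its call was lost in 8 alternatives, its value was -0.72 with summed stranded columns, and it has a near-identical copy, Serpina1b.

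Messages encoded in mitochondrial DNA belonged mostly to this class. Of 10 tested, 9 fell and none rose, where 10.1% of all genes tested were lower and 9.71% higher. The median was -1.08, against 0.12 in FAC and -0.61 in Lip-1+FAC. mt-Nd1, a subunit of complex I, stood at 1273, 988 and 1292 CPM in control, 1212, 1126 and 1342 CPM in FAC and 383, 386 and 458 CPM in MT+FAC, with Lip-1+FAC at 765, 815 and 648 CPM. The MT+FAC libraries were below those of every other group, and the fall against control was 1.53 (SE 0.12, edgeR adjusted p = 6.73e-06). mt-Co1, the catalytic subunit of complex IV, stood at 6241, 4896 and 5677 CPM in control and 3239, 3802 and 3546 CPM in MT+FAC, a fall of 0.67, with FAC at 6634, 6419 and 6460 CPM.

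The other falls were those of mt-Nd2 (-1.23), mt-Cytb (-0.93), mt-Nd6 (-0.74), mt-Nd4 (-0.72), mt-Nd5 (-0.41), mt-Co2 (-1.71) and mt-Co3 (-1.85). Of the list, 6 were lower without MT+FAC replicate 1 and 7 without control replicate 3. Among the calls lost were those of mt-Co2 and mt-Co3 without MT+FAC replicate 1, and that of mt-Co2 without control replicate 3. The levels of mt-Co2, mt-Co3 and mt-Atp6, at most 6.43 CPM in these libraries, are uncertain because nuclear copies are nearly identical and reads with several positions were not counted. Together the mitochondrially encoded messages took 0.967% ± 0.102 of the gene counts in control and 0.569% ± 0.0379 in MT+FAC (SD, n = 3), a ratio of 0.589. The exact two-sided permutation p was 0.1, the smallest that 3 against 3 libraries can give, and the groups did not overlap.

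Nuclear genes for subunits of oxidative phosphorylation (OXPHOS) were lower in 40 of 74 cases (54.1%) and higher in none, with a median of -0.44. Of all genes tested 10.1% were lower, and of the fifth with the shortest transcripts 18.0%. Cox7c fell by 0.81, Cox5b by 0.71, Ndufc1 by 0.67 and Cox8a by 0.63, all parts of complex IV or complex I. This count moved with the processing: 18 were lower and 1 higher with offsets for GC content and transcript length, which brought the median to -0.25. Without offsets, 14 were lower without control replicate 3 or without MT+FAC replicate 2, 17 without MT+FAC replicate 1, 20 without control replicate 1, 22 without MT+FAC replicate 3 and 49 without control replicate 2. The fall of Cox5b lost its call in 9 and that of Cox7c in 8 alternatives, that of Ndufc1 was lost without MT+FAC replicate 2, and Cox7c and Cox8a stood at -0.50 and -0.29 with the offsets.

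These subunits have short transcripts, with a median of 1094 nucleotides, and transcript length moved with the comparison as a whole. Among the 2705 genes with the shortest transcripts, of up to 1686 nucleotides, 18.0% were lower and 2.22% higher in MT+FAC, with a median of -0.21. In the 2703 with the longest, from 5016 nucleotides, 4.11% were lower and 20.5% higher, with a median of 0.15. With the offsets the medians were -0.03 and 0.01. The median of the mitochondrially encoded messages was -0.84 and that of the HIF targets -0.46 with these offsets, and 33 NRF2 targets were higher. With the same offsets 14 glycolysis genes, 16 genes of the urea cycle and amino acid breakdown and 16 plasma protein genes were lower, as without them. Falls were then 5 for the superoxide and peroxide enzymes, 7 for P450 genes, 9 for acute phase genes, 7 for dedifferentiation and cytoskeleton genes, 1 for mitochondrial chaperones and proteases and 1 for proteasome genes. Rises were 3 for P450 genes and 3 for cholesterol genes. Among the pathway lists, the medians of the hepcidin, matrix and lysosome lists turned from above to below 0, and that of the proteasome list from below to above.

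**Figure D4:**
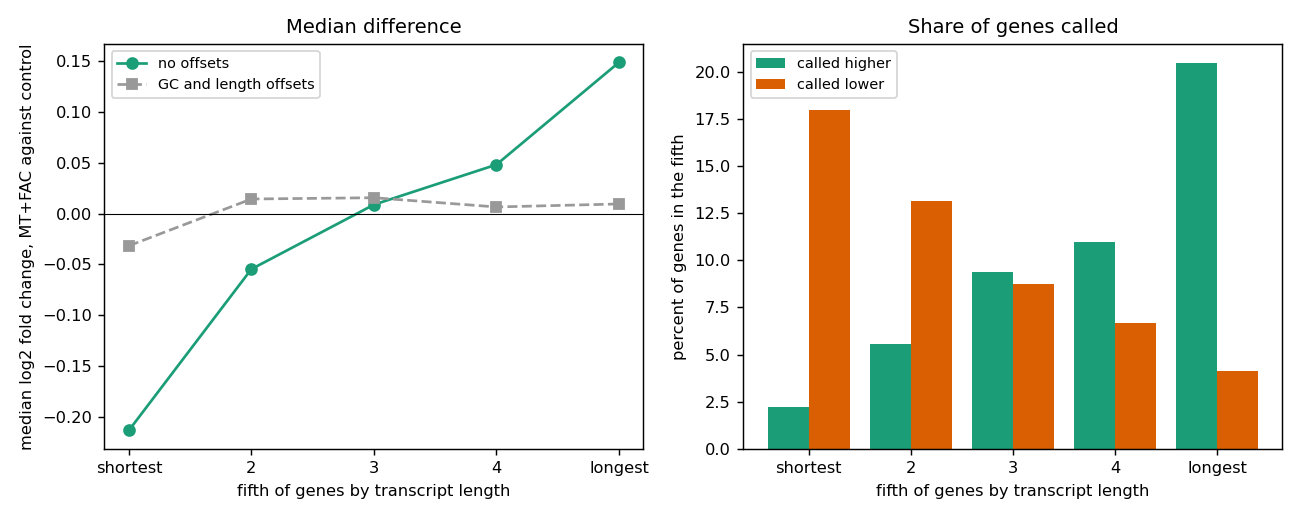
Genes in 5 bins of transcript length (x axis), with the median log2 fold change of MT+FAC against control at the left, without and with offsets for GC content and length, and the percent of genes called at the right. Without offsets the median climbs from -0.21 in the shortest bin to 0.15 in the longest; with them it lies between -0.03 and 0.02.

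Of 31 genes of the urea cycle and amino acid breakdown, 16 fell (51.6%) and 3 rose (9.68%), with a median of -0.37. Over all genes tested 10.1% fell and 9.71% rose. Tat, the tyrosine aminotransferase, stood at 73.3, 75.8 and 63.8 CPM in control and 31, 35.2 and 27.1 CPM in MT+FAC, a fall of 1.19 (SE 0.14, edgeR adjusted p = 7.33e-05). Aldh8a1, a dehydrogenase of tryptophan breakdown, fell by 1.10, the histidine ammonia-lyase gene Hal by 1.09 and Hpd, which acts after Tat, by 0.95. Cps1, the entry enzyme of the urea cycle, fell by 0.68, a call lost in 4 alternatives. The rises were those of Mat1a, Kynu and Dmgdh (0.52, 0.43 and 0.27), and none of them was called without control replicate 1 or without MT+FAC replicate 1 or 3.

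Of 16 gluconeogenesis genes, 9 fell (56.25%) and 2 rose (12.5%), against 10.1% and 9.71% of all genes tested. Beside Pck1 and Tat, G6pc, the enzyme that releases glucose, fell by 1.23 (SE 0.361), from 4.36, 3.30 and 7.34 to 2.62, 1.37 and 2.42 CPM, a call lost without control replicate 1 or 3 or MT+FAC replicate 2 or 3. Without control replicate 3, MT+FAC replicate 2 or MT+FAC replicate 3, 5 fell, and 1 rose without control replicate 1 or 2 or MT+FAC replicate 1 or 3. Of 32 genes of fatty acid oxidation and ketogenesis, 12 fell and 2 rose; Ppara, the receptor that drives them, fell by 0.61, and Acaa1b and Cyp4a10 by 1.04 and 0.81, both with near-identical copies.

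Lipid droplet genes had 5 falls and 2 rises among 17, with Plin5, which links droplets to mitochondria, at -1.06, the lipase inhibitor gene G0s2 at -0.93 and Cidec at -0.77; the rises were 1 without control replicate 1 or 3 or MT+FAC replicate 2 or 3. In lipogenesis, the carboxylase gene Acaca rose by 1.07 and Lpin1 and Fads2 fell by 0.75 and 0.58, among 3 rises and 5 falls of 22. The call of Acaca was lost with the length offsets and without control replicate 1 or 3. Cholesterol genes had 5 rises and 2 falls among 27 and a median of 0.13, and 2 rises without control replicate 1. The cholesterol falls were 1 without control replicate 3 or MT+FAC replicate 1 or 2. The median was -0.27 in FAC and 0.43 in Lip-1+FAC, where 20 of the 27 were higher than in control (15.4% of all genes were). Against Lip-1+FAC, 14 of the 27 were lower in MT+FAC (0.879% of all genes were).

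Of 37 cytochrome P450 genes of families 1 to 3, 10 fell (27.0%) and 5 rose (13.5%), against 10.1% and 9.71% of all genes tested. Cyp2e1, which oxidises ethanol, stood at 393, 305 and 306 CPM in control, 443, 388 and 518 CPM in FAC and 156, 176 and 145.5 CPM in MT+FAC. Its MT+FAC libraries lay below every control library, and the lowest FAC library lay below the highest control library. Cyp1a1, a target of the aryl hydrocarbon receptor, rose by 1.94 (SE 0.244) and Cyp2a5 by 0.87, although Cyp2a5 has a near-identical copy, Cyp2a4. In bile acid synthesis and transport, 8 of 20 fell (40%), among them the bile acid importer gene Slc10a1 (-0.74) and the reductase gene Akr1d1 (-0.75), and 2 rose (10%).

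Transcription factors of hepatocytes fell in 8 of 19 cases and rose in none. Tbx3 fell by 1.42 (SE 0.143), from 26.4, 18.98 and 23.01 to 8.97, 8.34 and 8.25 CPM, Onecut1 by 0.83 and Foxa3 by 0.61. Hnf4a, a master regulator of hepatocyte identity, was not called, at -0.24 (SE 0.108), but was called lower in 4 alternatives. Alb was not called either, at -0.17, but was called lower in 3 alternatives. Of 53 genes of plasma proteins, coagulation and complement, 16 fell and 7 rose, and Apoa2 fell by 0.95.

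Acute phase genes fell in 12 of 22 cases (54.55%, against 10.1% of all genes tested) and rose in 3 (13.6%, against 9.71%), with a median of -0.36. Saa2 stood at 486, 405 and 492 CPM in control, 597, 518 and 807 CPM in FAC and 206, 252 and 225 CPM in MT+FAC, and Crp fell by 0.86 (SE 0.104). Saa1 and Saa2 are 96.7% identical, so that their reads may be split. The rises were those of the metal and heme carrier genes Cp, Hpx and Hp (0.34).

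**Figure D5:**
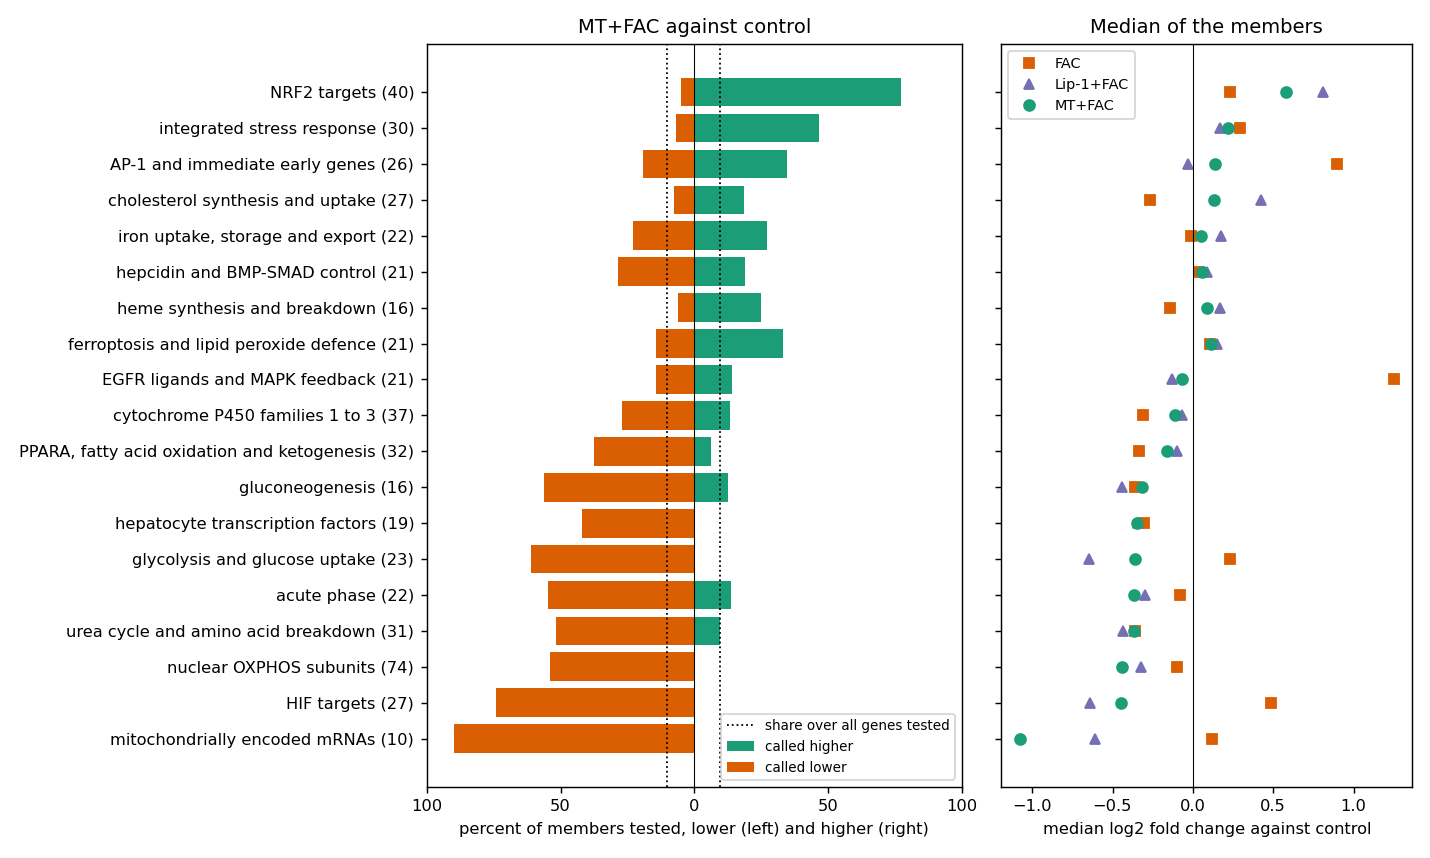
Left, percent of tested members called higher (to the right) or lower (to the left) in MT+FAC against control for 19 gene lists, with the number tested in brackets and dotted lines at the shares over all genes, 9.71% and 10.1%. Right, median log2 fold change of the members against control in FAC, Lip-1+FAC and MT+FAC; the HIF targets stand at 0.49 in FAC and -0.45 in MT+FAC.

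Of 21 EGFR ligand and MAPK feedback genes, 3 were higher and 3 lower, with a median of -0.07 against 1.25 in FAC. The ligand genes Areg and Btc were still above control, by 0.45 and 0.53, and so was the phosphatase gene Dusp4, by 0.66. Areg stood at 9.31, 7.17 and 8.52 CPM in control, 40.6, 46.1 and 39.2 CPM in FAC and 12.2, 11.3 and 10.6 CPM in MT+FAC. The MT+FAC libraries of Areg lay above control and far below FAC. The call of Dusp4 was lost in 4 alternatives and that of Areg in 2, each of which left out 1 library.

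Of 26 AP-1 and immediate early genes, 9 were higher and 5 lower, with a median of 0.14 against 0.90 in FAC. Fosb rose by 1.76 (SE 0.438) at a low level, from 0.385, 0.188 and 0.197 to 0.594, 0.958 and 1.08 CPM, Klf10 by 0.92 and Egr1 by 0.63. Fos, Zfp36 and Ier3 were on opposite sides of control, at -0.41, -0.45 and -0.32 in MT+FAC. Of 25 NF-kB and chemokine genes, 7 were higher and 2 lower, with 4 higher without control replicate 1 or without MT+FAC replicate 2. Ptger4, a prostaglandin receptor, was called at 1.41, but MT+FAC replicate 1 lay within the control range, at 0.781 CPM. Its call was lost without control replicate 1, without MT+FAC replicate 2 and with summed stranded columns, which gave 0.34. Ccl2, which attracts monocytes, stood at 4.53, 7.20 and 8.25 CPM in control and 15.8, 19.3 and 28.1 CPM in MT+FAC.

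Of 44 genes of dedifferentiation and the cytoskeleton, 10 were lower and 3 higher. The rises were those of Lgals1 (1.03), Ccn1 (0.56) and Vcl (0.45), and Tmsb10 and Tmsb4x fell by 1.25 and 0.62, calls that most fits that left out a library did not keep. Without control replicate 1 or MT+FAC replicate 1, 5 were lower, and without MT+FAC replicate 3, 6. Of 34 matrix and TGF-beta genes, 4 rose and 4 fell (11.8% each way, near the 9.71% and 10.1% over all genes). The rises were led by Plat, the tissue plasminogen activator (1.43, a call lost without control replicate 2 or MT+FAC replicate 2 or 3), and Spp1. Lox, which cross-links collagen, stood at 23.2, 23.1 and 24.5 CPM in control, 56.3, 65 and 76.5 CPM in FAC and 11.03, 17.9 and 16.8 CPM in MT+FAC. Its call against control was lost without control replicate 3.

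There were 2 rises and 7 falls among 24 p53 targets, with Sesn1 at -0.82 and the cell cycle inhibitor gene Cdkn1a at -0.69. Interferon genes had 4 falls among 29, among them Ifit3b (-0.96) and Isg15 (-0.69). The call of Ifit3b was lost in 9 of 15 alternatives, and its counts are uncertain because Ifit3 is 97.8% identical. Isg15 stood at -0.46 with the length offsets. Circadian genes had 2 rises and 5 falls among 19, and cell cycle genes 4 rises and 5 falls among 37. Ccnb1, which drives entry into mitosis, stood at 0.427, 0.15 and 0.0395 CPM in control, 0.0365, 0.23 and 0.444 CPM in FAC and 1.5, 0.639 and 1.64 CPM in MT+FAC, a rise of 2.61 (SE 0.639, edgeR adjusted p = 0.00819) at a low level. Ccna2 was called at 1.69, but the call was lost in 8 of 15 alternatives and its value fell to 0.07 with summed stranded columns. The inhibitor gene Cdkn2b rose by 1.501 (SE 0.182) and the replication helicase gene Mcm5 by 0.66, whereas E2f8 fell by 1.08. The circadian falls were 0 without control replicate 1 and 1 without MT+FAC replicate 3. Lysosome and autophagy genes had 6 rises and 3 falls among 34, with the autophagy receptor gene Sqstm1 at 0.91 and the sialidase gene Neu3 at -1.38. There were 3 rises and 3 falls among 31 proteasome genes, 3 and 1 among 15 heat shock genes, 1 and 2 among 19 genes of endoplasmic reticulum chaperones, 1 and 4 among 20 mitochondrial chaperones and proteases, and 2 and 0 among 21 genes of mitochondrial biogenesis. Over all genes tested 9.71% were higher and 10.1% lower. The proteasome list stood at 9.68% each way, the endoplasmic reticulum chaperones at 5.26% and 10.5%, and the cell cycle list at 10.8% and 13.5%. These shares lie near those over all genes and are not read as results about the lists. The proteasome rises were 2 without control replicate 3 and 1 without any other of the control and MT+FAC libraries. The falls of mitochondrial chaperones and proteases were 4 without control replicate 2, 2 without control replicate 1, 1 without MT+FAC replicate 2 or 3 and 0 without control replicate 3 or MT+FAC replicate 1, and their 1 rise was not called in any of these 6 fits. The falls of endoplasmic reticulum chaperones were 0 without MT+FAC replicate 2, 1 without control replicate 1 or 3 or MT+FAC replicate 3, and 3 without control replicate 2 or MT+FAC replicate 1. The heat shock falls were 3 without control replicate 3.

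Markers of the labelled cell type were abundant in every library. Of 15 hepatocyte markers 10 were lower and 2 higher, but their summed level overlapped, at 60400 to 64310 CPM in control and 63910 to 64430 CPM in MT+FAC. Pericentral markers fell in 5 of 8 (62.5%) and periportal markers in 8 of 12 cases (66.7%), and none rose, so that markers of both zones were lower. Over all genes tested 10.1% were lower. In such bulk samples fewer cells of a type and less RNA per cell cannot be told apart.

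Macrophage markers were low apart from Cd68, which stood at 245, 214 and 219.7 CPM in control and 135, 164 and 135 CPM in MT+FAC and was the 1 of 14 tested that was called, at -0.64. The summed level of the 16 was 251 to 284 CPM in control and 165 to 202 CPM in MT+FAC, and 6 and 4 of them were under 1 CPM. Csf1r, Clec4f, Adgre1 and Lyz2 were not called, at -0.02, 0.08, 0.72 and 0.31. Macrophages also express Tlr2, Mpeg1, Ccl2 and Lgals1, which rose, and the part of such cells in those rises was not tested. Of 7 cholangiocyte markers tested Spp1 was called higher, and Krt19, Sox9 and Krt7 were not called, at -0.56, -0.21 and -0.83. The summed level of 10 such markers was 76.3 to 86.9 CPM in control and 122 to 162 CPM in MT+FAC, most of it Spp1. Endothelial markers had 1 rise and 1 fall among 12 (8.33% each way, near the 9.71% and 10.1% over all genes). Stellate markers had 2 falls among 9, with Gfap at 0 in all libraries. All 16 lymphocyte and blood cell markers were under 1 CPM, and 10 of them had no counts.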

How the data were processed

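Cells had been cultured from mouse liver, cDNA was made and amplified with the SMART-Seq v4 kit and libraries were made with Nextera XT and sequenced on a NovaSeq, per the labels' protocols and the design text. STAR and the build GRCm38 are named in the submitters' processing notes, without a version of STAR. The authors deposited a count table per library, in which each whole number is the reads of 1 gene, per the file layout of STAR; the unstranded column was used and the 4 rows that name no gene were left out. A read with several positions is not counted in such tables, so genes with near-identical copies are uncertain. The protocols name no molecular identifiers, so counting error is a lower limit of the error. The table of FAC replicate 2 is marked as combined.

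The 55487 genes were filtered with filterByExpr, and 13535 were tested with edgeR 4.0.16 (R 4.3.3), TMM scaling and its quasi-likelihood test over all 12 libraries with 4 group means. P-values were adjusted by Benjamini-Hochberg over all genes tested and called under 0.05. Tested genes held 99.9% of the counts, and at 22991598 to 31683376 gene counts in the libraries compared the spread between libraries exceeded counting error. Gene positions, exonic overlap and transcript length came from GENCODE M21, copies of at least 95% identity over at least 30% of a transcript from blastn 2.17.0+, and promoters from RefSeq (GRCm38.p6). The test was checked on simulated counts.

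Genes were named by rule: the 10 largest rises and falls, 8 genes each way on opposite sides of control, 5 each way apart from both groups (each with a mean of at least 5 CPM in the higher group and no overlap), the 4 largest calls of each list and a few iron, redox and stress genes. Other members named beside a count were chosen after their values were seen. A few members are counted but not reported here by name. The members and lists were chosen with earlier results of these data known, so a list's count is no independent support. Alternatives were other scaling (RLE, upper quartile), other filters, DESeq2 1.42.0, summed stranded columns, offsets for GC content and transcript length, a replicate block, only the 6 libraries compared, and leaving out each library.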

Additional observations from a re-analysis of the deposited data

Results flagged for a closer look

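The effects of the 2 scavenger treatments against control differed, by the edgeR test of MT+FAC against Lip-1+FAC, for 15 of the reported genes named by rule. A negative value means lower in MT+FAC on the log2 scale. Some antioxidant and detoxification genes were lower in MT+FAC: Slc7a11 (-0.60), Abcc2 (-0.60), Gsta2 (-0.59), Cyp2a5 (-0.51) and Srxn1 (-0.43). The autophagy receptor gene Sqstm1 (-0.37) was lower as well. Others of that kind, Nqo1 (-0.31), Cbr3 (-0.33), Hmox1 (-0.23) and Gclc (-0.12), were not called in this comparison. The desaturase gene Scd2 (-0.79), the complex I gene mt-Nd1 (-0.86), the early growth response gene Egr1 (-0.68) and the small heat shock protein gene Hspb8 (-0.25) were lower too. Atoh8 (0.90), a target of BMP signals, G0s2 (0.90), Pfkfb3 (0.45) and the EGFR feedback inhibitor gene Errfi1 (0.44) were less far below control in MT+FAC. Fosb, at 2.26, had the largest difference, with 0.594, 0.958 and 1.08 CPM in MT+FAC and 0.182, 0.107 and 0.254 CPM in Lip-1+FAC. Why these values differ was not tested.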

How the results depend on the processing

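Among the genes named by rule, 175 were called and 122 of these kept their call in all alternatives that tested them; no direction was reversed. Of the 2684 genes called against control, requiring an absolute log2 fold change of 1 left 266, and of the 320 on opposite sides of control it left 17. Leaving out 1 library gave 1794 to 2830 called genes, 192 to 290 on opposite sides, and 610 to 1170 apart from both groups. With offsets for GC content and length 2340 genes were called, of which 1887 were among the 2684, and 352 were on opposite sides, of which 221 were among the 320. DESeq2 called 3134 and 395. Leaving out control replicate 1 lost the most named calls (34 of 175), and among alternatives with all libraries the replicate block with offsets did (26).

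The labels do not say that equal replicate numbers share an animal or day, so the numbers were not taken as pairs. Deviations of same-numbered control and MT+FAC libraries correlated at 0.0371, 0.0186 and 0.149 across genes. Same-numbered values were 0.00193, 0.21 and 0.103 between control and FAC, and 0.12, 0.0344 and 0.111 between FAC and MT+FAC. All of these were positive, and values between other numbers ran from -0.227 to 0.0847. Not every library correlated best with its own number. Whether equal numbers mark a shared preparation was not tested. With the replicate block 2553 genes were called and 310 were on opposite sides of control, 13 of the 175 named calls were lost, and 30 OXPHOS subunit genes were lower.

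Counts of few list members moved without 1 library: EGFR and MAPK rises were 1 without control replicate 2, P450 rises 2 without MT+FAC replicate 3 and 3 without control replicate 1 or 3 or MT+FAC replicate 1, cholesterol rises 3 without MT+FAC replicate 3, interferon falls 1 without control replicate 1 or 3 and 2 without MT+FAC replicate 2 or 3, circadian falls 3 without MT+FAC replicate 2, matrix rises 2 without MT+FAC replicate 2, matrix falls 1 without control replicate 3 and 2 without control replicate 1 or MT+FAC replicate 1 or 3, lysosome rises 3 without MT+FAC replicate 2, proteasome falls 0 without control replicate 3 and 1 without control replicate 1 or any MT+FAC library, cell cycle rises 2 without control replicate 1 or MT+FAC replicate 3, superoxide enzyme rises 2 without control replicate 3, fatty acid oxidation rises 1 without MT+FAC replicate 1, NF-kB falls 1 without control replicate 3 or MT+FAC replicate 1 or 2, hepatocyte marker rises 1 without control replicate 1, and stellate marker falls 1 without control replicate 1 or 2 or MT+FAC replicate 1 or 3. Of the 6 fits without 1 control or MT+FAC library, the endothelial marker rise was called only in that without control replicate 2, and endothelial falls were 2 without MT+FAC replicate 2. With all libraries, lipogenesis rises were 5 with the replicate block and 6 by DESeq2, P450 rises 3 with the block, and proteasome rises 1 with summed stranded columns. Requiring a mean of 5 CPM gave 4 falls of endoplasmic reticulum chaperones and 2 rises and 3 falls of cell cycle genes. With the offsets NF-kB falls, circadian rises and hepatocyte marker rises were 1 each and the heme fall was lost.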

Other observations

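Some genes that FAC alone moved far from control stood near control with Mito-TEMPO and FAC; they were chosen after their values were seen. Steap4, a metalloreductase, stood at 53.7, 60.5 and 49.8 CPM in control, 14.9, 14.02 and 15.3 CPM in FAC and 62.9, 47.4 and 57.6 CPM in MT+FAC. Sox9, a factor of bile duct cells, stood at 19.7, 15.3 and 17.3 CPM in control, 49.2, 53.6 and 57.5 CPM in FAC and 14.97, 13.6 and 16.6 CPM in MT+FAC. Neither was called in MT+FAC against control (edgeR adjusted p = 0.849 for Steap4 and 0.208 for Sox9), which does not show that they were equal.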
